A study of Mus musculus with 6 samples.

Results

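The nuclear genes that encode subunits of the respiratory chain and of the ATP synthase were examined in cultured satellite cells (SCs, the stem cells of skeletal muscle) from mice with a conditional deletion in the NF-YA gene and from controls. Members were taken by gene name: the Nduf genes of complex I, the Sdh genes of complex II, the Uqcr genes of complex III, the Cox4 to Cox8 genes of complex IV and the Atp5 genes of the ATP synthase. Of 83 genes that matched, 80 had more than 10 expected counts in at least 2 libraries and were tested, among 17348 tested genes of 35976 in all. They comprise 36 genes of complex I, 4 of complex II, 8 of complex III, 15 of complex IV and 17 named as ATP synthase. The 3 names that matched but were not tested were Cox6b2, with 4 to 18 counts per library, and Cox7b2 and Cox8c, with at most 1 count in any library. Just inside the limit lay Cox7a1, with 9 to 41 counts, and Cox4i2, with 14 to 44. Atp5s and Atp5sl were taken by their old names, although the annotation now calls them Dmac2l and Dmac2, and Ndufa4 was kept with complex I by name, although its protein is known in complex IV. Cyc1, a subunit of complex III outside the name rule, is given with the electron carriers.

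The 2 groups were 3 libraries of NF-YA cKO SCs and 3 of NF-YA fl/fl SCs, both from mice with floxed NF-YA alleles that received tamoxifen. Only NF-YA cKO mice carried Pax7-CreERT2, so that the deletion was driven in Pax7-expressing cells and the controls share the tamoxifen but not the Cre. The labels give an age of 5 to 7 weeks and the study's methods 6 to 8 weeks, with 5 daily injections and harvest 7 days after the last of them. For cultured SCs the methods describe magnetic removal of cells bound by antibodies to CD31, CD45, CD11b and Sca1, then 4 days in growth medium. NF-YA gives the trimeric factor NF-Y its contact with the CCAAT box of promoters. Nothing in the labels says which libraries come from separate mice, so that p-values measure the spread between these libraries, which may be technical in part.

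In mitochondria, complexes I and II pass electrons from NADH and succinate to ubiquinone, complex III passes them on to cytochrome c, complex IV passes them to oxygen, and the ATP synthase uses the resulting proton gradient to make ATP. Most subunits are encoded in the nucleus and are made in nearly all cells. Complex IV has a few subunits with a second gene used mainly in heart and skeletal muscle, among them Cox6a2, Cox7a1 and Cox8b, which replace Cox6a1, Cox7a2 and Cox8a as muscle fibers mature. The 13 subunits encoded by mitochondrial DNA were looked for by name, and 0 of them were among the genes listed in the files.

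Library totals lay between 26936230 and 41118984 expected counts. Levels are given as CPM, read counts divided by the TMM-scaled library total, and differences as the log2 fold change of NF-YA cKO over NF-YA fl/fl with its standard error (SE), from the quasi-likelihood test of edgeR, with the p-value adjusted over all tested genes by Benjamini and Hochberg (FDR). The transcript entry of the deleted Nfya allele held 22.3%, 26.4% and 34.2% of the Nfya counts in NF-YA cKO and 0 counts in each NF-YA fl/fl library. The gene as a whole was at 27.5 ± 0.874 against 28.7 ± 7.20 CPM (log2 fold change -0.06, FDR = 0.814, edgeR). All other Nfya transcripts together gave 19.9 ± 1.88 CPM (SD, n = 3) in NF-YA cKO against 28.7 ± 7.20 CPM in the controls (two-sided exact permutation test, p = 0.1, which is the smallest that 3 against 3 libraries can give). The spread between libraries was wider in NF-YA fl/fl (biological coefficient of variation 0.310 against 0.105). Xist was at 836 to 852 CPM in NF-YA cKO and at most 0.475 CPM in NF-YA fl/fl, while Y-linked Ddx3y reached 80.9 to 88.6 CPM in the latter against 2 or 3 counts in NF-YA cKO, although the methods describe male mice. Sex-linked expression and genotype therefore cannot be told apart. For the marker counts that follow, 19.7% of all tested genes were higher and 18.9% lower at an FDR under 0.05. Called genes had a log2 fold change past 1 or -1 at an FDR under 0.01 (4.65% called higher, 7.67% called lower). Of 8 muscle precursor markers 2 were higher at an FDR under 0.05 and 3 were lower (median log2 fold change -0.26), and their summed level was 1988 to 2273 CPM in NF-YA cKO against 2850 to 4975 CPM in the controls, without overlap. Pax7 was higher (171 ± 28.4 against 88.7 ± 15.8 CPM), Des, Cdh15 and Itga7 were lower, and Myod1 was at 567 ± 58.8 against 601 ± 473 CPM. All 10 measured markers of differentiated muscle were called lower in NF-YA cKO, and their summed level was 624 to 1408 CPM against 44302 to 53814 CPM. Of 12 macrophage markers 11 were called higher, with a summed level of 148 to 293 CPM against 6.34 to 16.3 CPM, in cultures from which CD45- and CD11b-positive cells had been depleted at isolation. Markers of other cell types differed too. Of 6 Schwann cell markers 5 were higher and 1 was lower at an FDR under 0.05 (summed 446 to 527 against 924 to 2091 CPM). Of 7 fibro-adipogenic markers 2 were higher, but 3 had a log2 fold change below 0. Their summed level overlapped (1930 to 2332 against 1069 to 2833 CPM). Of 5 tested endothelial markers 2 were higher (summed 13.2 to 18.1 against 4.17 to 8.15 CPM). Of 2 tested erythroid markers 1 was higher and 1 had a log2 fold change of -0.56, with low and overlapping sums (1.13 to 1.88 against 0.688 to 1.31 CPM). Of 5 tested pericyte and smooth muscle markers 2 were lower (summed 879 to 1019 against 1871 to 2243 CPM). In bulk RNA, fewer cells of a type and less RNA per cell cannot be told apart.

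Within the chain, the muscle isoforms Cox6a2 and Cox8b of complex IV fell, while 19 other subunit genes were slightly higher. Cox8b and Cox6a2 were the only members called lower, which asked for a log2 fold change below -1 at an FDR under 0.01 (2 of 80, 2.5%, where 7.67% of all tested genes were called lower). No member was called higher at the same limits (4.65% of all tested genes), and at an unadjusted p under 0.05 still 0 members exceeded a log2 fold change of 1, by edgeR as by DESeq2. At an FDR under 0.05 with no limit on the fold, 19 members were higher (23.8%, against 19.7% of all tested genes) and 3 were lower (3.75%, against 18.9%). The share that was higher is close to that of all genes. The 19 folds ranged from 1.23 to 1.53, and the groups did not overlap for any of the 19.

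**Figure D1:**
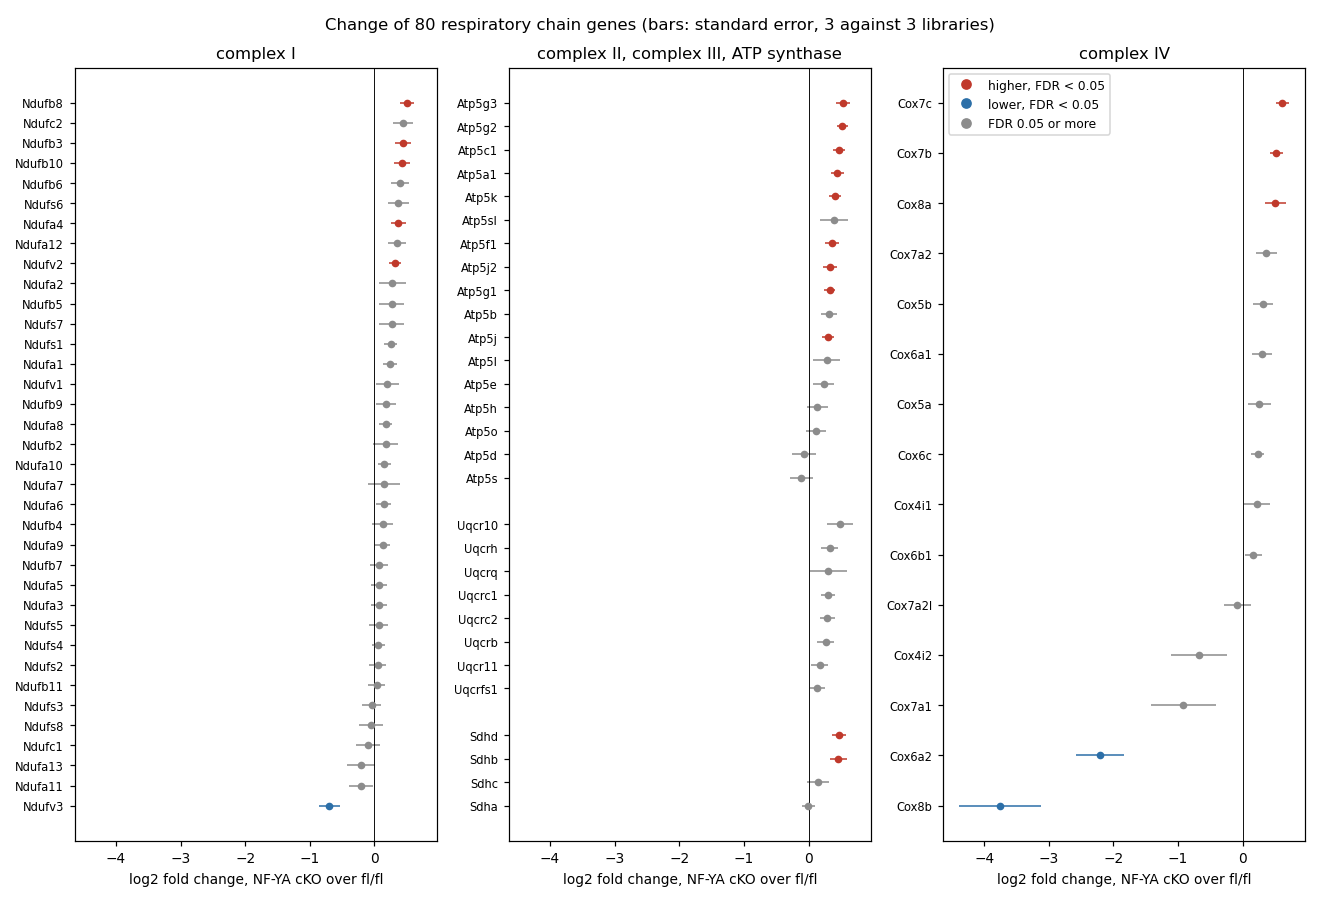
Log2 fold change of NF-YA cKO over NF-YA fl/fl for the 80 members, in 3 panels by complex, with bars for the standard error (3 against 3 libraries). Red and blue points passed an FDR of 0.05 as higher (19) and lower (3), and most points sit between 0 and 0.61, with Cox6a2 and Cox8b far to the left.

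Cox6a2, the heart and muscle form of subunit VIa, lies on chromosome 7 (chr7:128205435-128206366, GRCm38). It was at 3.25, 3.81 and 4.32 CPM in the NF-YA cKO libraries and at 20.5, 8.74 and 23.5 CPM in the NF-YA fl/fl libraries. Every NF-YA cKO library was below every NF-YA fl/fl library, and replicate 2 of NF-YA fl/fl stood between the others and NF-YA cKO. The log2 fold change was -2.21 (SE 0.37, FDR = 0.00461, edgeR), which left 21.6% of the mean control level. Its widely expressed partner Cox6a1 (chr5:115345652-115348958) was at 109, 107 and 109 CPM against 83.4, 71.6 and 110 CPM, and the groups overlapped (log2 fold change 0.30, SE 0.16, FDR = 0.174). In TPM, which is per length and allows a comparison between genes, Cox6a2 made up 2.15%, 2.56% and 2.87% of the pair in NF-YA cKO and 15.4%, 8.27% and 13.8% in NF-YA fl/fl. The log2 ratio of the pair was -5.28 ± 0.22 against -2.86 ± 0.54, a difference of -2.42 (two-sided exact permutation test, p = 0.1, the smallest these libraries can give).

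Cox8b, the heart and muscle form of subunit VIII (chr7:140898942-140900446), was at 0.287, 0.121 and 0.635 CPM in NF-YA cKO against 7.45, 2.71 and 4.24 CPM in NF-YA fl/fl. The groups did not overlap. These levels rest on 9, 5 and 27 counts in NF-YA cKO and 195, 91 and 125 counts in NF-YA fl/fl. The log2 fold change was -3.76 (SE 0.63, FDR = 0.00455, edgeR), the lowest among the 80 members. Cox8a (chr19:7215158-7217616), its partner, rose from 124, 114 and 174 CPM in NF-YA fl/fl to 195, 199 and 192 CPM in NF-YA cKO (log2 fold change 0.50, SE 0.16, FDR = 0.0464). Cox8b was 0.287%, 0.118% and 0.633% of the TPM of the pair in NF-YA cKO and 10.6%, 4.45% and 4.41% in NF-YA fl/fl. The log2 ratio differed by -4.51 between the groups (-8.49 ± 1.22 against -3.98 ± 0.78, two-sided exact permutation test, p = 0.1).

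Cox7a1, the heart and muscle form of subunit VIIa (chr7:30184171-30186030), was near the detection limit. It was at 0.287, 0.555 and 0.611 CPM in NF-YA cKO against 1.57, 0.743 and 0.509 CPM in NF-YA fl/fl, so that the groups overlapped (log2 fold change -0.92, SE 0.50, FDR = 0.186, edgeR). For Cox7a2 (chr9:79755241-79771422) the values were 107, 119 and 110 CPM against 87.8, 67.0 and 106 CPM (log2 fold change 0.37, SE 0.17, FDR = 0.124). The log2 ratio of this pair differed by -1.25 (two-sided exact permutation test, p = 0.3). Cox4i2, a tissue-restricted alternative to Cox4i1, was as low, at 0.41 to 0.611 CPM in NF-YA cKO and 0.475 to 1.31 CPM in NF-YA fl/fl (FDR = 0.257). In all 6 libraries the widely expressed gene of each pair thus held most of the TPM, and for the pairs of subunits VIa and VIII each NF-YA cKO library had a smaller share of the muscle form than any NF-YA fl/fl library. The markers of differentiated muscle moved in the same direction as Cox6a2 and Cox8b, and their part in these results was not tested.

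**Figure D2:**
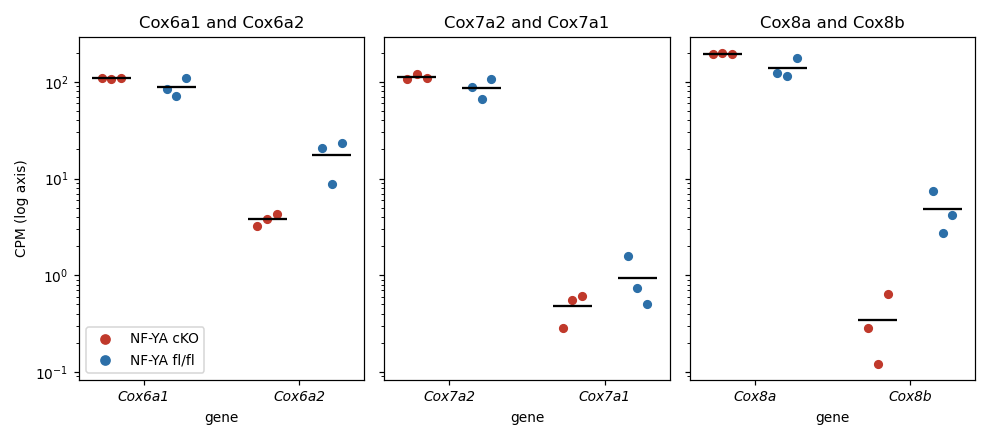
CPM on a log axis of the 3 muscle isoforms and their widely expressed partners, 1 point for each library and a line at the mean of 3 libraries. Points of NF-YA cKO (red) lie below those of NF-YA fl/fl (blue) for Cox6a2 and Cox8b, overlap for Cox7a1, and lie at the level of the upper NF-YA fl/fl points or above them for the partners.

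The 250 bases before the start of Cox8b and Cox8a (RefSeq, GRCm38.p6) are shown because this pair had the largest shift between isoforms. Capitals mark the letters CCAAT, searched on both strands (ATTGG on the other strand), and CAGCTG, an E-box that reads the same on both strands and is of the kind bound by MyoD and myogenin. Neither motif can overlap the other. The Cox8b window is chr7:140900447-140900696 and the Cox8a window chr19:7217617-7217866, both on the minus strand and read 5′ to 3′.
Cox8b: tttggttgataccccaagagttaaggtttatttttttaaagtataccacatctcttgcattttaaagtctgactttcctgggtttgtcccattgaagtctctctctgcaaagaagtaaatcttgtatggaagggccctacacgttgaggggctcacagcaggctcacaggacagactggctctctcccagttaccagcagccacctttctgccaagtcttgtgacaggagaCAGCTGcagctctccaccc
Cox8a: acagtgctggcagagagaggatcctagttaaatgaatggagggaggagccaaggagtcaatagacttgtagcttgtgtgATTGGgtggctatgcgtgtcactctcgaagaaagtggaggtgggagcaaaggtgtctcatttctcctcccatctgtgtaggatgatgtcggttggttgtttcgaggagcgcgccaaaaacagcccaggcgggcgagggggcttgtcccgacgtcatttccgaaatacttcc

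The Cox8b window held CAGCTG, beginning 19 bases before the start, and no CCAAT. The Cox8a window held 1 CCAAT box in the orientation ATTGG, beginning 171 bases before the start, and no CAGCTG. The other pairs did not repeat this. The window of the muscle form Cox7a1 held 2 CCAAT boxes and no CAGCTG, and that of Cox7a2 held neither motif. The Cox6a1 window held 1 CCAAT box and no CAGCTG. Of the 80 members, 67 had a window in the RefSeq table, and Cox6a2 was not among them. CCAAT was found in 29 of these (43.3%), against 37.5% of 27025 genes of the table, and in 8 of 18 members that were higher at an FDR under 0.05 (44.4%). CAGCTG was in 6 of 67 members (8.96%), against 14.7% of all genes. A match is a description of the letters and not of a bound site.

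Complex I oxidizes NADH and is the largest complex of the chain. Of its 36 genes, 5 were higher and 1 was lower at an FDR under 0.05, and 30 did not pass, with a median log2 fold change of 0.16. The shares that were higher and lower were below those of all tested genes (19.7% and 18.9%). The 3 higher members with the smallest FDR encode accessory subunits of the membrane arm of complex I. Ndufb8 was at 85.6, 90.8 and 87.4 CPM in NF-YA cKO against 66.2, 53.2 and 66.9 CPM in NF-YA fl/fl (log2 fold change 0.50, SE 0.11, FDR = 0.013, edgeR). Ndufb3 was at 23.9, 24.7 and 22.9 CPM against 19.8, 15.9 and 17.1 CPM (log2 fold change 0.44, FDR = 0.0266). Ndufb10 was at 37.5, 47.1 and 43.6 CPM against 34.4, 29.9 and 30.9 CPM (log2 fold change 0.43, FDR = 0.0286). All libraries of NF-YA cKO were above those of NF-YA fl/fl for these genes. Among 7 nuclear core subunits, which carry the flavin and the iron-sulfur clusters, Ndufv2 was higher (log2 fold change 0.31, FDR = 0.0356) and 6 did not pass.

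Ndufv3, an accessory subunit next to the NADH-binding core, was the only member outside complex IV that was lower. It was at 23.5, 23.4 and 22.9 CPM in NF-YA cKO against 38.1, 29.4 and 45.5 CPM in NF-YA fl/fl. The groups did not overlap (log2 fold change -0.70, SE 0.16, FDR = 0.0154, edgeR). The gene makes a short and a long transcript, which differ by a large alternative exon. Reads assigned to the long transcript gave 6.74, 7.90 and 7.04 CPM in NF-YA cKO against 15.8, 8.76 and 22.8 CPM in NF-YA fl/fl (two-sided exact permutation test, p = 0.1). Its share of the TPM of the gene was 8.23%, 10.2% and 9.18% against 13.6%, 8.59% and 18.8%, and here the groups overlapped (p = 0.3 by the same exact permutation test). The short transcript was also lower in each NF-YA cKO library, at 15.5 to 16.7 CPM against 20.7 to 22.8 CPM.

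Complex II joins the citric acid cycle to the chain. Its membrane anchor gene Sdhd was at 127, 134 and 127 CPM in NF-YA cKO against 90.5, 84.1 and 105 CPM in NF-YA fl/fl (log2 fold change 0.47, SE 0.11, FDR = 0.0135, edgeR). The iron-sulfur subunit gene Sdhb was at 96.2, 116 and 102 CPM against 76.7, 66.1 and 86.1 CPM (log2 fold change 0.46, FDR = 0.0286). Both rose without overlap. Of all tested genes, 19.7% were higher at an FDR under 0.05 and 29.1% were higher without overlap. The flavoprotein gene Sdha was at 234 ± 3.68 CPM in NF-YA cKO against 234 ± 24.9 CPM in NF-YA fl/fl (FDR = 0.983), and Sdhc did not pass either (FDR = 0.534). The genes of 1 complex thus gave different values in the same libraries.

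None of the 8 complex III genes passed an FDR of 0.05, where 19.7% of all tested genes were higher and 18.9% lower. All 8 had a log2 fold change above 0 (0.14 to 0.49, median 0.30), where 8498 of 17348 tested genes did. Uqcrc1, a core protein, came closest, at 199, 209 and 201 CPM against 165, 143 and 184 CPM (FDR = 0.0673, edgeR). At an unadjusted p under 0.05 Uqcrc1, Uqcrc2 and Uqcrh passed, which were chosen after their values were seen.

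In complex IV, where electrons meet oxygen, Cox7c, Cox7b and Cox8a rose, Cox6a2 and Cox8b fell as described, and 10 genes did not pass. Of the 15 genes 3 were thus higher, near the share of all tested genes (19.7%), and 2 were lower (18.9% of all tested genes). Cox7c, a small structural subunit, had the largest increase of all 80 members. It was at 104, 120 and 108 CPM in NF-YA cKO against 76.5, 67.1 and 73.6 CPM in NF-YA fl/fl (log2 fold change 0.61, SE 0.10, FDR = 0.0039, edgeR). Cox7b was at 98.2, 105 and 98.3 CPM against 77.9, 68.6 and 64.5 CPM (log2 fold change 0.52, SE 0.10, FDR = 0.00774). For both genes the groups were apart. Cox7b lies on chromosome X (chrX:106015700-106022450), as do Ndufa1 and Ndufb11, and the libraries differ in Xist as given above. Ndufa1 was at 20.3 ± 0.57 CPM against 17.1 ± 1.62 CPM (FDR = 0.139), and Ndufb11 at 50.7 ± 2.27 CPM against 49.6 ± 7.84 CPM (FDR = 0.854). The log2 fold change of Ndufb11, 0.03, turned to below 0 under upper-quartile scaling, on TPM and with effective lengths as offsets.

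The ATP synthase had the largest number of higher members, 9 of 17, and 0 were lower (median log2 fold change 0.33, against -0.02 for all tested genes). Of all tested genes, 19.7% were higher and 18.9% were lower at an FDR under 0.05. All 3 genes of the membrane-embedded c-ring, whose mature protein is the same, were higher. Atp5g2 was at 121, 132 and 125 CPM in NF-YA cKO against 85.2, 85.3 and 93.3 CPM in NF-YA fl/fl (log2 fold change 0.52, SE 0.09, FDR = 0.00446, edgeR). Atp5g3 was at 183, 216 and 201 CPM against 143, 126 and 149 CPM (log2 fold change 0.53, SE 0.11, FDR = 0.00947). Atp5g1 followed with 125 ± 2.97 against 99.8 ± 4.88 CPM (log2 fold change 0.33, FDR = 0.02). No library of one group reached the other in these 3 genes. Of 5 genes for the catalytic head and central stalk, Atp5a1 (log2 fold change 0.44, FDR = 0.0138) and Atp5c1 were higher, while Atp5b, the catalytic subunit, was at 1556 ± 71.4 against 1254 ± 141 CPM (FDR = 0.0829) and Atp5d at 124 ± 4.46 against 130 ± 34.7 CPM (FDR = 0.789). Of 4 peripheral stalk genes, Atp5f1 and Atp5j were higher.

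Atp5c1, which encodes the rotating gamma subunit, changed in total and in transcript makeup. Its total was 206, 233 and 214 CPM in NF-YA cKO against 160, 147 and 165 CPM in NF-YA fl/fl (log2 fold change 0.47, SE 0.09, FDR = 0.00888, edgeR). In vertebrate muscle and heart a short exon near the end of this gene is known to be skipped, whereas most other tissues include it. In GENCODE M21, the transcript matched to NM_020615.4 has 10 exons and includes this exon 9 of 37 bases (chr2:10056770-10056806, GRCm38, minus strand), and a form of 9 exons lacks it. The end of the coding sequence of both forms is shown from the 15 bases before the junction through the stop codon, with bases of exon 9 in capitals, since these few bases are where the forms part.
with exon 9: tggggctgctgctctGGATTAA
without exon 9: tggggctgctgctctgtaa

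NM_020615.4 held 83.5%, 83.9% and 80.8% of the Atp5c1 TPM in NF-YA cKO and 43.0%, 49.5% and 23.0% in NF-YA fl/fl (two-sided exact permutation test, p = 0.1, the smallest these libraries can give). The remainder fell almost wholly to XM_006497310.2, of 1137 bases against 1166, with 16.1%, 15.8% and 18.6% against 56.6%, 49.7% and 76.3% (p = 0.1, exact permutation test). Which exons XM_006497310.2 holds could not be read from the tables used, so that it was not established that it is the form without exon 9. The third transcript, NM_001112738.1, held at most 0.77% in any library. In CPM, reads assigned to NM_020615.4 were at 181 ± 13.6 in NF-YA cKO and 60.8 ± 19.3 in NF-YA fl/fl, and those assigned to XM_006497310.2 at 35.6 ± 3.24 and 95.2 ± 26.7. The total of the gene thus differed far less than either transcript. Replicate 3 of NF-YA fl/fl had the largest share of XM_006497310.2, and without it the difference in share was -36.4 percentage points in place of -44.1. RSEM splits reads that match several transcripts, so that these shares are estimates. The markers of differentiated muscle differed between the same libraries, and their part in the transcript shares was not tested.

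**Figure D3:**
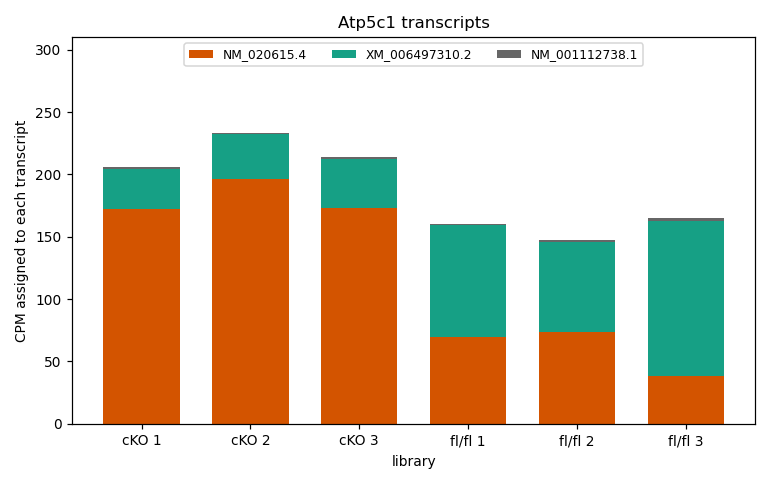
CPM assigned by RSEM to each Atp5c1 transcript, stacked, for each of the 6 libraries. NM_020615.4 makes up most of each NF-YA cKO bar (172 to 196 CPM) and at most 73.7 CPM of an NF-YA fl/fl bar.

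Among the 29 members with more than 1 transcript, a difference of more than 10 percentage points in the mean share with no overlap was found only for Atp5c1 and Ndufs1. How many genes outside the members meet this rule was not counted, so that it is not known whether this number is unusual. Ndufs1 encodes the largest iron-sulfur subunit of complex I. Its transcript NM_001160039.1 held 22.4%, 18.9% and 22.0% of the gene in NF-YA cKO and 13.3%, 9.24% and 9.36% in NF-YA fl/fl, and NM_145518.2 held 50.9%, 48.9% and 47.4% against 57.6%, 62.4% and 61.0%. Ndufs1 as a whole did not pass (log2 fold change 0.25, FDR = 0.102, edgeR).

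The members also moved together from library to library within NF-YA fl/fl. Replicate 2 had the lowest CPM of the 3 NF-YA fl/fl libraries in 72 of 80 members (90.0%), against 45.3% of the 9457 tested genes that averaged 10 CPM or more, and replicate 3 the highest in 60 of 80 (75.0%, against 48.1%). With effective transcript lengths as offsets the same counts were 71 and 54 of 80. On the TPM scale replicate 2 was lowest in 24 members and replicate 3 in 51, and there replicate 3 was also the lowest in 71.8% of the 9457 genes. For the 77 members other than the muscle isoforms, the median of log2(CPM + 1) relative to the mean of NF-YA fl/fl was 0.03, -0.24 and 0.20 in replicates 1, 2 and 3 of NF-YA fl/fl and 0.22, 0.32 and 0.25 in NF-YA cKO. On the CPM scale replicate 3 of NF-YA fl/fl was thus close to the NF-YA cKO libraries. In summed TPM of all members it was instead the lowest of the NF-YA fl/fl libraries (11732, against 12951 and 12974) and the farthest from NF-YA cKO. The coefficient of variation was larger in NF-YA fl/fl for 75 of 80 members (median 17.2% against 4.46%), and all tested genes had the same order of medians (20.7% against 7.97%).

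**Figure D4:**
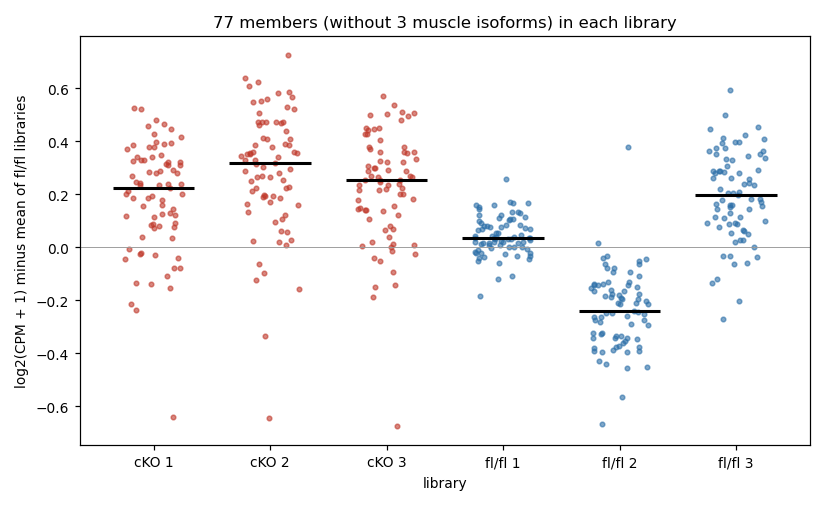
Each point is 1 of 77 members, plotted as log2(CPM + 1) minus its mean over the 3 NF-YA fl/fl libraries, with a line at the median of each library. Replicate 2 of NF-YA fl/fl lies lowest (-0.24) and replicate 3 (0.20) near the NF-YA cKO libraries (0.22 to 0.32).

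How many members passed depended on single libraries. Without replicate 3 of NF-YA fl/fl 43 members were higher at an FDR under 0.05, without replicate 2 of NF-YA fl/fl 11 were, and without replicate 1, 2 or 3 of NF-YA cKO 6, 2 and 5 were. The median log2 fold change over the 80 members was 0.25 (all tested genes -0.02) and lay between 0.09 and 0.35 when single libraries were left out. Of the 80 members 66 were above 0, where 8498 of 17348 tested genes were. This number was 55 without replicate 2 of NF-YA fl/fl and 73 without replicate 3 of NF-YA fl/fl. All NF-YA cKO libraries were above all NF-YA fl/fl libraries in 35 members (43.8%, against 29.1% of all tested genes) and below them in 3 (3.75%, against 26.2%). On the TPM scale these counts were 36 (45.0%, against 18.8%) and 5 (6.25%, against 25.2%). The summed TPM of all members was 14949, 13775 and 14535 in NF-YA cKO and 12951, 12974 and 11732 in NF-YA fl/fl, and it did not overlap. The summed TPM of complex I was 3902 ± 200.4 against 3612 ± 166, of complex II 424 ± 18.3 against 365 ± 18.7, of complex III 1475 ± 43.6 against 1263 ± 109, of complex IV 3564 ± 167 against 3041 ± 75.5 and of the ATP synthase 5055 ± 169 against 4271 ± 373. Among the complexes only complex I overlapped, with 3681 in replicate 2 of NF-YA cKO and 3749 in replicate 1 of NF-YA fl/fl. TPM sums are shares of all RNA and also move with abundant transcripts such as Rn7s1, which ranged from 65660 to 149852 TPM.

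Genes that serve the chain without being subunits were examined beside it. The proteins of the mitochondrial ribosome, which translates the subunits encoded in mitochondria, are encoded by 77 tested Mrp genes. Of these 45 were higher at an FDR under 0.05 (58.4%, against 19.7% of all tested genes) and 0 were lower (against 18.9%). The median log2 fold change was 0.45. Mrpl15 was at 81.4 ± 1.63 against 44.3 ± 1.44 CPM (log2 fold change 0.88, FDR = 0.000567, edgeR) and Mrpl20 at 61.7 ± 1.94 against 32.0 ± 2.47 CPM (log2 fold change 0.95, FDR = 0.000795). Of 14 complex I assembly factors 7 were higher and 1 was lower. Ndufaf4 rose by 0.76 and Ecsit by 0.52 on the log2 scale (FDR = 0.00443 and 0.00941), and Ndufaf3 fell by 0.89 (FDR = 0.0227). Of 35 assembly factors of complexes II to V, 6 were higher, near the share of all tested genes, and 0 were lower. Tmem70 (0.45, FDR = 0.0207) and Cox17 (0.51, FDR = 0.0314) had the smallest FDR among the higher ones.

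Electron carriers and ubiquinone synthesis had 6 higher of 14 and 0 lower. For this list and the next, the shares of all tested genes were 19.7% higher and 18.9% lower. Cycs, cytochrome c itself, was at 267 ± 21.7 CPM in NF-YA cKO against 152 ± 14.0 CPM in NF-YA fl/fl (log2 fold change 0.81, SE 0.11, FDR = 0.00218, edgeR), a larger change than that of any subunit that rose. Coq7, a hydroxylase of ubiquinone synthesis, was at 18.2 ± 1.18 against 9.01 ± 1.51 CPM and was called higher (log2 fold change 1.01, FDR = 0.00359). Cyc1 was at 136 ± 6.33 against 109 ± 21.3 CPM (FDR = 0.135). Of 7 genes for the ATP synthase inhibitor and for nucleotide, phosphate and porin channels, 4 were higher and 0 lower. Slc25a5, the ADP/ATP carrier of proliferating cells, rose from 297 ± 12.6 to 586 ± 29.3 CPM (log2 fold change 0.98, FDR = 0.000634) and Vdac2 rose by 0.47 on the log2 scale (FDR = 0.00632). Slc25a4, the ADP/ATP carrier of heart and muscle, had a log2 fold change of -0.24 (FDR = 0.0861), and was named after its value was seen.

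**Figure D5:**
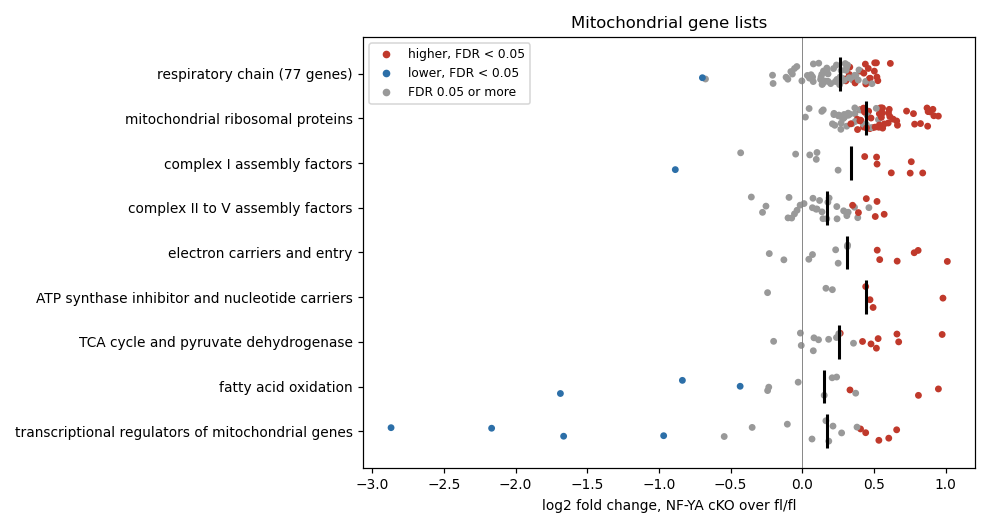
Log2 fold change of NF-YA cKO over NF-YA fl/fl for each gene of 9 mitochondrial gene lists, with a line at the median of the list. The medians range from 0.15 (fatty acid oxidation) to 0.45 (mitochondrial ribosomal proteins), and blue points (lower at an FDR under 0.05) stand mainly among fatty acid oxidation genes and transcriptional regulators.

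Of 18 regulators of these genes 5 were higher and 4 were lower at an FDR under 0.05, shares near those of all tested genes (19.7% and 18.9%). Nrf1 and Gabpa (NRF-2), which bind many promoters of respiratory chain genes, were at 55.2 ± 3.31 against 38.1 ± 1.94 CPM (log2 fold change 0.53, FDR = 0.00536, edgeR) and at 105 ± 1.67 against 79.1 ± 4.71 CPM (log2 fold change 0.41, FDR = 0.00995). Tfam, which packages and transcribes mitochondrial DNA, was at 45.1 ± 1.90 against 28.6 ± 2.31 CPM (log2 fold change 0.66, FDR = 0.00326). These 3 genes rose. Esrrg, a nuclear receptor of oxidative muscle, fell from 4.71 ± 1.94 to 0.637 ± 0.202 CPM and was the only regulator called lower (log2 fold change -2.87, FDR = 0.00257), and Ppara fell from 3.66 ± 2.06 to 0.804 ± 0.202 CPM (log2 fold change -2.17, FDR = 0.0131). The coactivator Ppargc1a was low, at 2.49 ± 0.36 against 3.64 ± 0.371 CPM, and did not pass (log2 fold change -0.55, FDR = 0.0728). Its partner Esrra did not pass either (log2 fold change 0.18, FDR = 0.377).

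Of the 9457 genes that averaged 10 CPM or more, those whose log2(CPM + 1) was most alike to each muscle isoform over the 6 libraries were listed by Pearson's r. For Cox6a2 they were Flcn, Pink1, Sprtn, Traf4 and Klc4 (r = 0.997 to 0.999). For Cox8b they were Acadvl, which starts the oxidation of long fatty acids, Map1lc3a, Sppl2a, Tmem62 and Ccpg1 (r = 0.994 to 0.997). The list of Cox7a1, which was near the detection limit, was Aes, Hras, Brms1l, Pcmtd1 and Ak3 (r = 0.922 to 0.962). The 6 libraries fall into 2 genotypes and all genes share their depth, so that r describes these libraries only.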

How the data were processed

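Stranded RNA-seq of SCs was used, 3 libraries for each genotype, grouped by their labels. The authors aligned reads with bowtie2 to mouse transcripts of build mm10 and estimated abundance by RSEM. The deposited files hold expected counts, which need not be whole since RSEM splits shared reads, TPM, effective lengths, and for each transcript its percent of the TPM of the gene. Paralogs and transcripts of one gene are therefore estimates of a split, as are the 3 genes of the c-ring.

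Expected counts were rounded, and the 17348 genes that exceeded 10 counts in 2 or more libraries entered edgeR 4.0.16 (TMM, quasi-likelihood, genotype only, R 4.3.3). SE is the size of the log2 fold change over the square root of F. A call asked for an FDR under 0.01 together with a log2 change past 1 or -1, and genes were described as higher or lower at an FDR under 0.05. A total of 3 counts is 0.073 to 0.111 CPM, for counting error only. Ratios and transcript shares were compared with exact permutation tests (scipy 1.17.1). Coordinates are from RefSeq, GRCm38.p6, in which all 83 names were matched. Genes are named by rule: muscle isoforms and partners, called members, the 3 members of each complex with the smallest FDR in each direction at an FDR under 0.05, X-linked members, and 2 genes per list in each direction. Other members are named as examples.

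The members, lists and tests were chosen with earlier results of these data known. Alternatives were DESeq2 1.42.0, its size factors, library totals, upper-quartile factors, edgeR's filterByExpr, no filter, limma 3.58.1 on log2(TPM + 1) and log2(TPM + 0.1), unrounded counts, an FDR under 0.05 with the fold limit, glmTreat against a fold limit of 1 (log2), replicate number as a block, each library left out, and effective lengths as offsets, the last added after the data were seen. Plots were drawn with matplotlib 3.10.9.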

Additional observations from a re-analysis of the deposited data

How the results depend on the processing

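No member was called higher under any of the alternatives. The number called lower, 2, stayed 2 under all but the test against a log2 fold change of 1 (0) and leaving out single libraries (0 to 2: 0 without replicate 1 or 2 of NF-YA cKO or replicate 1 of NF-YA fl/fl, and 1, Cox8b, without replicate 3 of NF-YA cKO). Cox6a2 and Cox8b nevertheless stayed lower at an FDR under 0.05 in each of 17 refits, with log2 fold changes of -2.54 to -1.94 and -4.60 to -3.30. Fewer samples entered the refits that leave out a library. The number of members higher at an FDR under 0.05, 19, was 8 and 7 by limma on log2(TPM + 1) and log2(TPM + 0.1), 7 with the replicate block and 2 to 43 when single libraries were left out, and between 14 and 28 under the other alternatives. The 7 with the replicate block were all among the 19. The cause of these changes was not tested. The numbers lower were 2 to 4. Over single named members, 118 comparisons with an alternative kept their direction but missed an FDR of 0.05, 2 newly passed, 280 kept their call and 8 changed sign. The median log2 fold change of members was 0.09 to 0.35 throughout.

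Libraries with the same replicate number did not pair: the correlations of their deviations from the group means were 0.22, -0.12 and 0.05, and replicates 1 and 3 of NF-YA cKO, but not replicate 2, correlated best with their own number. The numbers were therefore not taken as pairs. Ndufb11, near 0, changed sign at -0.0077 (upper-quartile factors), -0.00076 (filterByExpr), -0.033 (limma on either TPM scale), -0.0024 (effective length offset) and -0.093 to 0.14 when libraries were left out. With 3 libraries per group the exact permutation test cannot pass 0.05 and says nothing of stability. Depth limits Cox7a1, Cox4i2 and, in NF-YA cKO, Cox8b.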

Other observations

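Genes of pathways that feed electrons to the chain were listed as well. Of 18 genes of the citric acid cycle and pyruvate dehydrogenase, 8 were higher at an FDR under 0.05 and 0 were lower (median log2 fold change 0.26), where 19.7% and 18.9% of all tested genes were higher and lower. Fumarase, Fh1, reached 94.3 ± 4.44 CPM in NF-YA cKO against 59.2 ± 2.44 CPM in NF-YA fl/fl (log2 fold change 0.67, SE 0.09, FDR = 0.00169, edgeR), and Suclg2, a subunit of succinyl-CoA ligase, at 72.3 ± 4.01 against 36.8 ± 5.72 CPM (log2 fold change 0.98, FDR = 0.00218).

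Fatty acid oxidation had 3 of 13 genes higher and 3 lower (median log2 fold change 0.15), which is near the shares of all tested genes. The carnitine palmitoyltransferases that admit fatty acids to mitochondria went in opposite directions: Cpt1a, the liver form, was at 91.0 ± 2.09 against 47.1 ± 10.9 CPM (log2 fold change 0.95, FDR = 0.00593, edgeR), and Cpt1b, the muscle form, at 2.32 ± 0.659 against 7.48 ± 3.17 CPM (log2 fold change -1.69, FDR = 0.0113). Echs1, a hydratase of the pathway, was higher (0.81, FDR = 0.00405), and Acadl, an acyl-CoA dehydrogenase, was lower (-0.84, FDR = 0.0113).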
